A study of Mus musculus with 24 samples.

Results

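The *Peg10–Sgce* imprinted domain of proximal chromosome 6 was examined through 7 of its genes, *Casd1*, *Sgce*, *Peg10*, *Ppp1r9a*, *Pon3*, *Pon2* and *Asb4*, named here in their order along the chromosome. They were found by gene symbol, and all 7 are among the 34745 genes of the deposited expression table. RNA-seq was performed with hybrid 129/DBA total embryos at embryonic day 13.5, 1 library per embryo, with 6 *Zfp57*-/+ (M-Z+) and 6 *Zfp57*-/- (M-Z-) embryos. ZFP57 is a KRAB zinc finger protein that keeps DNA methylation on imprinting control regions after fertilization. All 12 embryos lacked maternal *Zfp57*, since their mothers were *Zfp57*-/- 129 mice, and the fathers were *Zfp57*+/- (DBA*) mice mainly of the DBA/2J background. A M-Z+ embryo carried the wild-type *Zfp57* allele of its father, whereas a M-Z- embryo had no wild-type allele. The comparison therefore asked what the zygotic copy of *Zfp57* changed when the maternal product was absent. Embryos with maternal *Zfp57* were not part of the expression table, and the labels do not give sex or litter. Nothing in the labels says more than that the embryos were separate samples, so the p-values measure the spread between these embryos.

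Imprinted genes are expressed from 1 parental copy, and the copy is chosen by germline DNA methylation at an imprinting control region. In this domain the methylation lies on the maternal copy where *Peg10* and *Sgce* begin, and both are known as paternally expressed genes. The study reports from its bisulfite sequencing that this methylation was mostly kept in M-Z- embryos of both sexes. Methylation was not analysed here. *Asb4* is known as a maternally expressed gene, and maternal expression of *Ppp1r9a* and of the paraoxonase genes has been described mainly in the placenta. The counts are totals over both parental copies, so they do not show which copy was expressed. The embryos were sequenced whole, and fewer cells of a type and less RNA per cell cannot be told apart.

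The 7 genes span 832 kilobases of chromosome 6, from 4600839 to 5433022 on mm10 (GRCm38), as the table lists them. *Sgce* (ENSMUSG00000004631) lies from 4674350 to 4747207 and *Peg10* (ENSMUSG00000092035) from 4747306 to 4760517, with 98 bases and no other row between them. *Sgce* and *Peg10* are known to be transcribed away from each other, so their starts face each other across this gap. *Casd1* (ENSMUSG00000015189) lies from 4600839 to 4643355 and *Ppp1r9a* (ENSMUSG00000032827) from 4902917 to 5165661. *Pon3* (ENSMUSG00000029759) lies from 5220852 to 5256286, *Pon2* (ENSMUSG00000032667) from 5264147 to 5298455 and *Asb4* (ENSMUSG00000042607) from 5383386 to 5433022. Small predicted transcripts are listed inside *Ppp1r9a*, *Casd1* and *Pon2*, and none of them had more than 23 counts in a library. In RefSeq (GRCm38.p6) *Pon3*, which lies on the minus strand, reaches down to 5216256, so it also covers the row RP23-380L19.3 (5216258 to 5220486), whose 87 to 233 counts per library were counted separately from *Pon3*.

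ZFP57 is known to bind the hexamer TGCCGC when its CpG is methylated, and the 300-base windows around gene starts (250 bases before and 50 after) were searched for it on both strands, where it reads GCGGCA on the other strand. RefSeq windows on GRCm38.p6 were at hand for 5 of the 7 genes, 8 windows in all, and those of *Peg10* and *Sgce* were not used here. The hexamer was in 2 of the 8 windows, those shown here, and in 11.6% of all 32851 windows. The *Casd1* window is chr6:4600661-4600960 (plus strand, 23 CpG) and the *Pon3* window is chr6:5256184-5256483 (minus strand, 7 CpG), and capitals mark the hexamer on either strand. A match describes the letters and shows no binding.
Casd1: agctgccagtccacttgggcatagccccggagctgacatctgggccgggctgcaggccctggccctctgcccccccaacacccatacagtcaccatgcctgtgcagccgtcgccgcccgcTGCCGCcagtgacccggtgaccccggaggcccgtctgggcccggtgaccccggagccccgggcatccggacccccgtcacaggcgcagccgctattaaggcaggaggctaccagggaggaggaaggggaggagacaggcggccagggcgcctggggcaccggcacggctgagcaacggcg
Pon3: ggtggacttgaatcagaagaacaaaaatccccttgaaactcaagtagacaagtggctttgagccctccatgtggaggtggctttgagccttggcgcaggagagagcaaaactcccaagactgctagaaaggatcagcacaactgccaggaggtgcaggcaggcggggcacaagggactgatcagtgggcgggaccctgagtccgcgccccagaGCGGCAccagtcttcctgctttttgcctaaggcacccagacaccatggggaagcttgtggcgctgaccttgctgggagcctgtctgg

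Each library held between 12005145 and 19216288 counts, and all 7 genes were among the 16026 that edgeR kept for testing. CPM are TMM-normalized counts at an equal library size. A gene was called at an adjusted p below 0.05 (Benjamini–Hochberg over all tested genes) and a log2 fold change beyond 0.5. M-Z+ replicate 6 and M-Z- replicates 5 and 6 stood apart from the other 9 libraries on the first principal component (37.7% of the variance). In these 3 libraries longer genes also had relatively more counts, and the regression slope of log2 CPM against log2 length (the gene length slope) was 0.63 to 0.64, against 0.41 to 0.54 in the others. *Zfp57* itself averaged 27.1 ± 8.25 CPM in the M-Z+ group and 24.5 ± 4.17 CPM in the M-Z- group (SD, n = 6), and as the deleted part of the mutant allele is not known from the sources used here, it does not check the genotypes. Markers of neurons, hepatocytes, erythroid cells, skeletal muscle and endothelium were counted in every library. Trophoblast markers were nearly absent from the embryos, since 7 of 10 (*Prl3d1*, *Prl2c2*, *Prl8a9*, *Tpbpa*, *Psg21*, *Ctsq* and *Synb*) had 0 counts in every library and the other 3 had at most 2.

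None of the 7 genes was called between the genotypes, whereas edgeR called 13 of the 16026 tested genes (0.0811%). DESeq2 also called none of the 7, and none passed an unadjusted p below 0.05 together with the fold change limit, as 1.54% of all genes did. *Peg10* and *Sgce* passed the unadjusted p alone, as 6.7% of all genes did, with changes below the limit. In the 19 alternative edgeR fits the 95% interval included 0 in 3 for *Peg10* and in 9 for *Sgce*. These were the fits with 2 surrogate variables or with M-Z- replicate 2 or 4 removed for *Peg10*. For *Sgce* they were the fit with no filter beyond 1 count and those with M-Z+ replicate 2, 3 or 6 or M-Z- replicate 1, 2, 3, 4 or 6 removed. All 7 log2 fold changes were above 0, and 48.3% of all tested genes had one above 0. Their median was 0.17, beside −0.0072 over all tested genes. The median was 0.048 when 2 surrogate variables were in the fit. Among the cell type markers, all 6 of hepatocytes and all 5 of erythroid cells had values below 0 (medians −0.24 and −0.16), and all 5 of endothelium had values above 0 (median 0.14). Of the 8 neuron markers 7 were below 0 and 1 above (median −0.17). Of the 4 skeletal muscle markers tested 3 were above 0 and 1 below (median 0.056). None of these markers was called, the summed levels of hepatocyte markers (3698 to 7353 CPM in M-Z+ and 2765 to 6869 CPM in M-Z- embryos) and of erythroid markers (4033 to 7082 and 3262 to 6283 CPM) overlapped between the genotypes, and their part in the members' values was not tested.

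**Figure D1:**
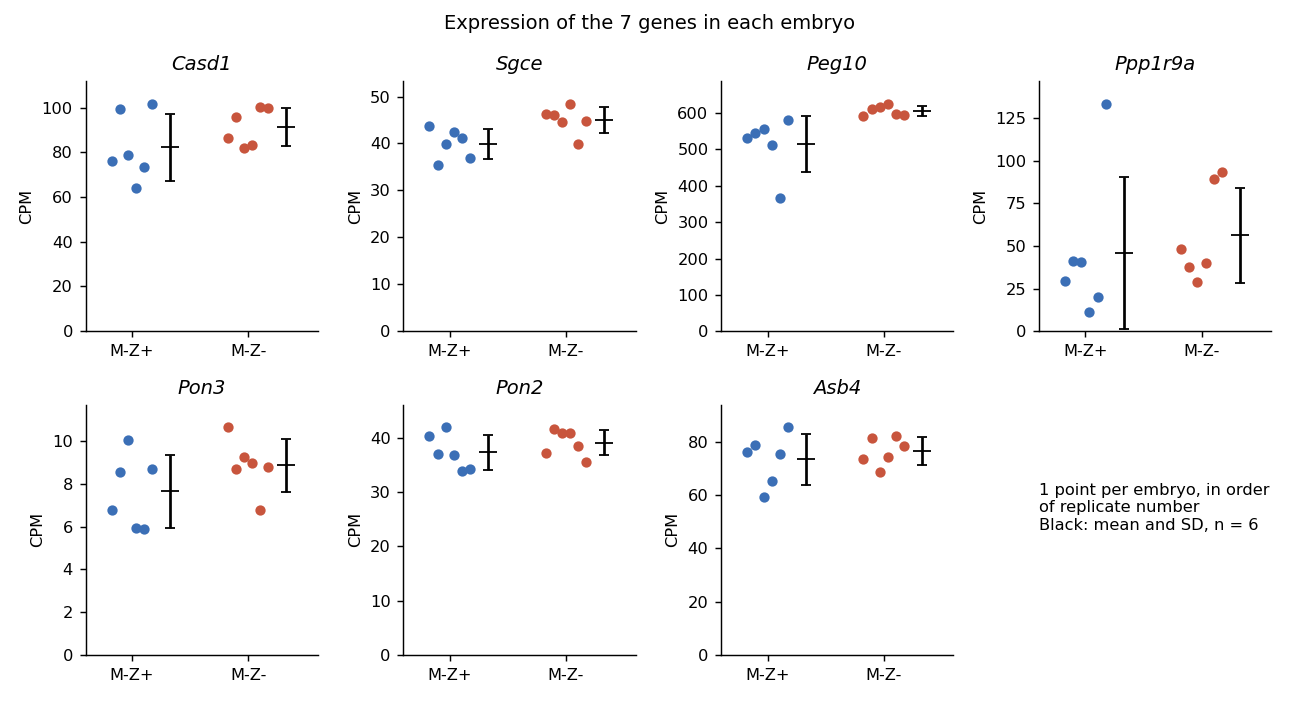
CPM of the 7 genes in each of the 6 M-Z+ (blue) and 6 M-Z- (red) embryos, with the mean and SD in black. The 6 M-Z- embryos lie above the 6 M-Z+ embryos for Peg10, the groups overlap for the other 6 genes, and Ppp1r9a is high in 3 embryos.

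*Peg10*, a gene derived from the gag and pol of a retrotransposon and needed for the placenta, had the highest level of the 7. In M-Z+ embryos it had a lowest value of 366 CPM, a median of 539 CPM and a highest value of 582 CPM. In M-Z- embryos these were 591, 605 and 626 CPM. All 6 M-Z- embryos therefore lay above all 6 M-Z+ embryos, with a gap of 9.39 CPM between the groups, as 92 of all tested genes (0.574%) showed in one direction or the other. The means were 516 ± 76.7 and 606 ± 13.4 CPM (SD, n = 6 per group), which gave a log2 fold change of 0.23 (SE 0.095, 95% interval 0.028 to 0.44, edgeR adjusted p = 0.744). By an exact two-sided permutation test of the means the unadjusted p was 0.0022, the smallest that 6 embryos against 6 can give and the value that any full separation gives. The interval ends below the limit of 0.5, and it reached 0.51 without the 3 libraries that stood apart.

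The M-Z+ embryos differed far more among themselves in *Peg10* than the M-Z- embryos did. The coefficient of variation was 14.9% in M-Z+ and 2.21% in M-Z- embryos, and 1 embryo accounted for most of the spread. M-Z+ replicate 5 had 366 CPM, and the other 5 had 514 to 582 CPM. Without replicate 5 the M-Z+ mean was 546 ± 25.6 CPM (SD, n = 5), its coefficient of variation was 4.68% and the log2 fold change fell from 0.23 to 0.15 (edgeR adjusted p = 0.916).

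*Sgce*, which encodes epsilon-sarcoglycan and is mutated in human myoclonus-dystonia, showed a smaller difference in the same direction. The lowest, median and highest values were 35.5, 40.5 and 43.7 CPM in M-Z+ embryos. They were 39.9, 45.4 and 48.5 CPM in M-Z- embryos. In 5 of the 6 M-Z- embryos *Sgce* was above its level in every M-Z+ embryo, and M-Z- replicate 5 was within the M-Z+ range. The means were 39.9 ± 3.19 and 45.0 ± 2.86 CPM (SD, n = 6), and the log2 fold change was 0.17 (SE 0.074, 95% interval 0.013 to 0.33, edgeR adjusted p = 0.744, unadjusted exact two-sided permutation p = 0.0238). It was 0.23 in the fits that held the length slope or 2 surrogate variables, and *Sgce* was not called in these fits either (edgeR adjusted p = 0.246 and 0.191).

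*Casd1*, which encodes the enzyme that acetylates sialic acids, had a lowest, median and highest value of 63.9, 77.4 and 102 CPM in M-Z+ embryos. The same values were 81.7, 91.1 and 100.4 CPM in M-Z- embryos. The M-Z- embryos lay inside the M-Z+ range, in the part above its median. The log2 fold change was 0.15 (SE 0.11, 95% interval −0.092 to 0.39, edgeR adjusted p = 0.757), and it was 0.032 once the length slope was a covariate.

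*Ppp1r9a*, which encodes the actin-binding neuronal scaffold neurabin, was the most variable member. It had 11.2, 34.9 and 133 CPM as the lowest, median and highest M-Z+ values and 28.9, 44.0 and 93.1 CPM as those of M-Z-. The 3 high embryos were M-Z+ replicate 6 with 133 CPM and M-Z- replicates 5 and 6 with 88.9 and 93.1 CPM, the libraries that stood apart, and the other 9 had 11.2 to 48.2 CPM. The coefficients of variation were 96.9% and 49.4%. The log2 fold change of 0.29 had a standard error of 0.50 and a 95% interval from −0.78 to 1.36 (edgeR adjusted p = 0.879), which reaches from a fall beyond the limit of 0.5 to a rise beyond it. Leaving out M-Z+ replicate 6 gave 0.99 and leaving out M-Z- replicate 5 gave 0.10. The value was 0.079 when either M-Z+ replicate 4 or M-Z- replicate 6 was dropped, and 0.13 without M-Z+ replicate 5. Without the 3 libraries that stood apart it was 0.45, and none of these fits called *Ppp1r9a*.

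The paraoxonase genes *Pon2* and *Pon3* encode enzymes that hydrolyse lactones. *Pon2* ranged from 33.8 to 41.9 CPM in M-Z+ embryos (median 36.9) and from 35.6 to 41.5 CPM in M-Z- embryos (median 39.6). Its log2 fold change was 0.07 (SE 0.076, 95% interval −0.095 to 0.23, edgeR adjusted p = 0.810). Without M-Z+ replicate 5 or 6 it was 0.036 or 0.035, without M-Z- replicate 2 it was 0.041, and without M-Z+ replicate 3 it was 0.10. *Pon3*, the member with the fewest counts (84 to 167 per library), ranged from 5.90 to 10.05 CPM in M-Z+ embryos (median 7.66) and from 6.80 to 10.6 CPM in M-Z- embryos (median 8.90). The log2 fold change of *Pon3* was 0.21 (SE 0.15, 95% interval −0.12 to 0.54, edgeR adjusted p = 0.756), and both genes had overlapping groups. RP23-380L19.3, which RefSeq counts as part of *Pon3*, had a log2 fold change of 0.06 (SE 0.14, edgeR adjusted p = 0.913). *Pon1*, the third paraoxonase gene of this segment, had 5 to 31 counts per library and a log2 fold change of −0.34 (SE 0.35, edgeR adjusted p = 0.798), so 2 of the 3 paraoxonase genes had values above 0 and none was called.

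*Asb4*, which encodes an ankyrin repeat protein of ubiquitin ligase complexes, was the member with the smallest fold change. It ranged from 59.1 to 85.3 CPM in M-Z+ embryos (median 75.7) and from 68.5 to 82.1 CPM in M-Z- embryos (median 76.3). The M-Z- embryos lay inside the M-Z+ range, and the log2 fold change was 0.06 (SE 0.089, 95% interval −0.13 to 0.25, edgeR adjusted p = 0.863). In the fit that held the length slope it was −0.0071. For the 5 genes other than *Peg10* and *Sgce*, the unadjusted exact permutation p was 0.182 to 0.682. Whether members differed from each other was tested for *Peg10* against *Sgce* alone.

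**Figure D2:**
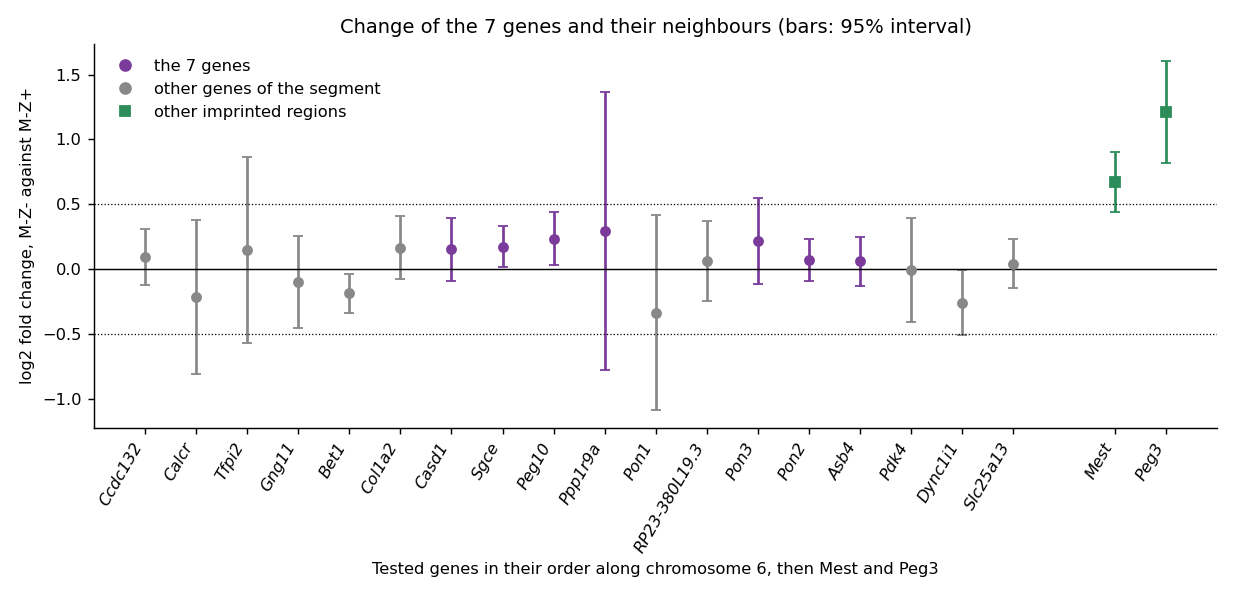
log2 fold change of M-Z- against M-Z+ embryos with its 95% interval for the tested genes in their order along chromosome 6, with Mest and Peg3 at the right. Dotted lines mark the limit of 0.5 in either direction. The 7 genes (purple) have values from 0.06 to 0.29, other genes of the segment (grey) lie on both sides of 0, and Mest and Peg3 (green) lie at 0.67 and 1.21.

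The other rows within 1000000 bases outside the outermost members, and those between them, were also described. Of these 27 rows, 11 had enough counts to be tested, and edgeR called none of them. At an unadjusted p below 0.05 there were 2, *Bet1* and *Dync1i1*, both lower in M-Z- embryos. *Bet1*, which encodes a protein of vesicle transport, had a log2 fold change of −0.19 (SE 0.069, edgeR adjusted p = 0.743). The value for *Dync1i1*, a dynein intermediate chain gene, was −0.26 (SE 0.12, edgeR adjusted p = 0.745). The median of the 11 was −0.0092, with 5 above and 6 below 0, and no groups were separate. *Col1a2*, the collagen gene next to *Casd1*, had a log2 fold change of 0.17 (SE 0.11, edgeR adjusted p = 0.753), beside 0.15 for *Casd1*. *Calcr*, an imprinted gene of this segment, had 13 to 56 counts per library and a log2 fold change of −0.21 (SE 0.28, edgeR adjusted p = 0.838). The study reports a significant decrease of *Calcr* in M-Z- females only, against females with maternal and zygotic *Zfp57*. That comparison could not be made here, as such embryos and sex labels were absent.

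The order of the members' levels per length depended on the length used. TPM were computed with the gene length implied by the deposited FPKM. The median over the 12 embryos was 161 TPM for *Peg10*, 63.1 for *Asb4*, 58.0 for *Casd1*, 17.4 for *Pon2*, 11.1 for *Sgce*, 7.55 for *Pon3* and 5.42 for *Ppp1r9a*. Neighbours in this order were in the same order in all 12 embryos, except for *Asb4* above *Casd1* and *Pon3* above *Ppp1r9a*, which held in 9 of 12. The implied length of *Sgce* is 13411 bases and that of *Peg10* is 13229 bases, more than the stretch from its start to its end. With the longest GENCODE transcript in place of the implied length, *Sgce* moved from the fifth place to the second. The median CPM per kilobase was then 88.1 for *Peg10*, 23.9 for *Sgce*, 23.1 for *Asb4*, 21.3 for *Casd1*, 14.2 for *Pon2*, 4.32 for *Pon3* and 4.21 for *Ppp1r9a*. On this scale the ranges of *Sgce*, *Asb4* and *Casd1* overlapped.

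The change of *Peg10* and *Sgce* was set against that of *Mest*, a paternally expressed gene on the same chromosome, and *Peg3*, a paternally expressed zinc finger gene on chromosome 7. Both were chosen with their increase in these embryos known, so their own changes are not a finding here. *Mest* had a log2 fold change of 0.67 (SE 0.11, edgeR adjusted p = 0.0312) and *Peg3* of 1.21 (SE 0.18, edgeR adjusted p = 0.0173). When each of the 12 embryos was left out in turn, *Mest* was no longer called in 10 of the fits, with removal of M-Z+ replicate 1 and removal of M-Z- replicate 5 as the exceptions and with log2 fold changes of 0.62 to 0.69. It was also not called with no filter beyond 1 count (edgeR adjusted p = 0.0526). *Peg3* was not called in 4 fits, after removal of M-Z+ replicate 1, 3 or 5 or of M-Z- replicate 6, with values of 1.13 to 1.21. The ratio of CPM was taken within each embryo on the log2 scale, and its mean was compared between the genotypes. All 5 ratios were tested and adjusted together. No p-value is given for the ratios to *Mest* and *Peg3*, because the increase of these genes was known when they were chosen.

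The ratio of *Sgce* to *Mest* was lower in every M-Z- embryo. On the log2 scale it was −5.42 to −5.16 in M-Z+ embryos and −5.92 to −5.58 in M-Z- embryos, so the groups did not overlap. The mean difference was −0.50. The ratio of *Sgce* to *Peg3* differed by −1.07 and that of *Peg10* to *Peg3* by −0.99, again with separate groups. *Peg10* to *Mest* differed by −0.42 with overlapping groups. The ratio of *Peg10* to *Sgce* ranged from 3.14 to 3.96 in M-Z+ embryos and from 3.66 to 3.89 in M-Z- embryos. The M-Z- values lay inside the M-Z+ range, and the mean difference was 0.077 (exact two-sided permutation p = 0.632, also 0.632 after adjustment over the 5 ratios).

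**Figure D3:**
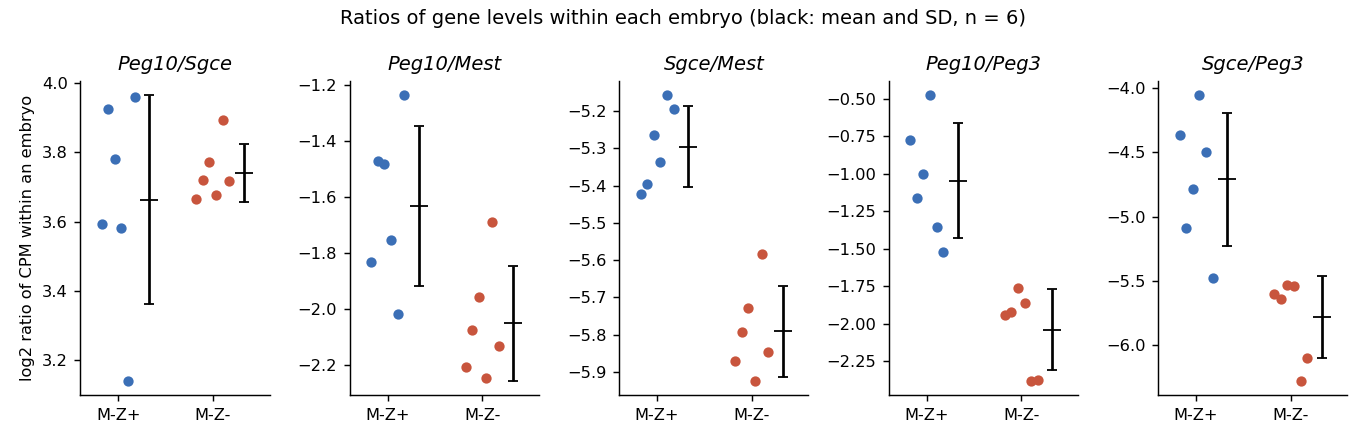
log2 ratio of CPM within each embryo for 5 pairs of genes in M-Z+ (blue) and M-Z- (red) embryos, with the mean and SD in black. The groups are separate for Sgce/Mest, Peg10/Peg3 and Sgce/Peg3 and overlap for Peg10/Mest and Peg10/Sgce. The lowest Peg10/Sgce value, 3.14, is that of M-Z+ replicate 5.

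Although *Peg10* and *Sgce* begin beside each other, their levels were not seen to vary together among embryos of a genotype. Over the 6 M-Z+ embryos Pearson's r of log2 CPM was −0.34 (exact permutation p = 0.575, adjusted p = 0.575) and Spearman's rho was −0.60 (exact permutation p = 0.242, adjusted p = 0.483). Over the 6 M-Z- embryos r was 0.47 (exact permutation p = 0.375, adjusted p = 0.575) and rho was 0.14 (exact permutation p = 0.803, adjusted p = 0.803). Without the 2 embryos farthest from the median of *Peg10*, r was −0.56 and 0.48.

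The genes most like *Peg10* and *Sgce* across embryos were found among 12875 genes by Pearson's r of the deviations from the genotype means over the 12 embryos, which share the libraries. For *Peg10* they were *Mfap3*, *Atp8b1* and *Plekhg1* with r of 0.97, 0.94 and 0.94. Without M-Z+ replicate 5, where *Peg10* was low, these values were 0.55, 0.68 and 0.48. *Tmem98*, *Psmc4* and *Nqo1* were most like *Sgce*, with r of 0.95, 0.93 and 0.93, and of 0.96, 0.93 and 0.93 without that embryo. In *Sgce* that embryo had 41.1 CPM, near the M-Z+ median of 40.5 CPM, so its removal says little about these genes. The r of both genes are the highest of 12875 over 12 embryos, with the libraries that stood apart included, and were not tested. *Sgce* had r of −0.78 with *Casd1* and −0.22 with *Peg10*, so its nearest genes were not among the members.

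The levels of the members were also compared with the gene length slope of the libraries and with the summed level of 8 neuron markers, 14 relations in all. For the slope, the 9 libraries that did not stand apart were used, with 5 M-Z+ and 4 M-Z- libraries, too few for a value within a genotype. *Casd1* followed the slope closely, with Pearson's r of 0.92 (exact permutation adjusted p = 0.0005) and Spearman's rho of 0.97 (exact permutation adjusted p = 0.0023). Without M-Z+ replicates 2 and 4, the farthest from the median slope, r was 0.89 (exact permutation p = 0.006). *Ppp1r9a* had r of 0.88 (exact permutation adjusted p = 0.0324) and rho of 0.68 (exact permutation adjusted p = 0.117). Its r was 0.56 without these libraries (exact permutation p = 0.181), so the relation was not shown without them. The slopes then left, 0.48 to 0.53, cover too narrow a range to decide whether the relation of *Ppp1r9a* rests on them. *Peg10* had r of 0.37 and *Sgce* of −0.031 (exact permutation adjusted p = 0.302 and 0.931).

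**Figure D4:**
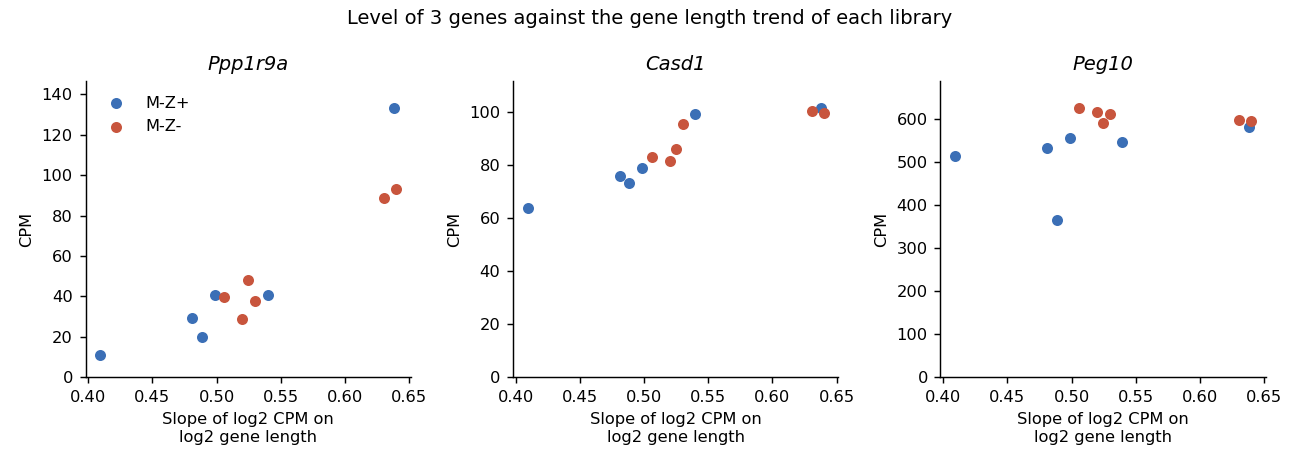
CPM of Ppp1r9a, Casd1 and Peg10 in each library against the gene length slope of that library, with M-Z+ in blue and M-Z- in red. The 3 libraries at 0.63 to 0.64 are the 3 highest in Ppp1r9a, with 88.9 to 133 CPM, and Casd1 is lowest where the slope is lowest.

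The summed neuron markers ranged over 1644 to 2171 CPM for M-Z+ and over 1602 to 1916 CPM for M-Z- embryos. None of the 8 was called. *Stmn2* and *Nefl*, a tubulin regulator and a neurofilament gene, were lower in all 6 M-Z- embryos than in any M-Z+ embryo, with log2 fold changes of −0.21 and −0.24 (edgeR adjusted p = 0.664 and 0.527). Groups were separate in these 2 of the 8 neuron markers, beside 0.574% of all tested genes. *Pon2* was lower where these markers were higher, with r of −0.78 over the 12 embryos (permutation adjusted p = 0.0285) and rho of −0.78 (permutation adjusted p = 0.0309). Its r was −0.79 within M-Z+ and −0.69 within M-Z- embryos. Without M-Z+ replicates 5 and 6, the farthest from the median of the summed markers, it was −0.57 (permutation p = 0.0822). The value within M-Z- embryos includes neither of them, and their removal narrows the range. Whether the relation rests on these embryos was therefore not settled. The part of the neuron share in the level of *Pon2* was not tested. *Peg10* and *Sgce* had r of −0.48 and −0.68 (permutation adjusted p = 0.189 and 0.0538). Within M-Z+ embryos these were −0.27 and −0.45, and within M-Z- embryos −0.66 and −0.71. *Asb4* rose with the markers, with r of 0.62 (permutation adjusted p = 0.0647), 0.93 within M-Z+ and 0.70 within M-Z- embryos. *Ppp1r9a* and *Casd1* had r of 0.39 and 0.35, with 0.51 and 0.60 within M-Z+ and 0.96 and 0.90 within M-Z- embryos. For *Pon3* r was −0.42. Values within a genotype were not tested.

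The genes that work with *Sgce* or resemble *Peg10* in origin were described as well. Of 14 genes of the dystrophin-glycoprotein complex, which holds the sarcoglycans in the membrane, 13 were tested and edgeR called none, with 7 above and 6 below 0 and a median log2 fold change of 0.046. By TPM the highest were *Utrn*, *Sgcb*, *Dag1* and *Sntb2*. Their log2 fold changes were 0.25, 0.05, −0.21 and 0.50, of which only *Dag1* had an unadjusted p below 0.05 (edgeR adjusted p = 0.744). Of 10 other genes derived from retrotransposon gag, 9 were tested and 1 was called. That was *Rtl1*, a paternally expressed gene of chromosome 12, which averaged 13.9 ± 2.21 CPM in the M-Z+ group and 0.0476 ± 0.0579 CPM in the M-Z- group (SD, n = 6, edgeR adjusted p = 1.58e-08). The lists were chosen with earlier results of these data known, so this call is not a finding here. The median of the 9 was −0.14. *Cxx1c*, *Zcchc5*, *Ldoc1l* and *Cxx1b*, the highest by TPM, had log2 fold changes of −0.30, 0.18, −0.09 and −0.14 and were not called. Among the endothelial markers, *Tek*, which encodes an angiopoietin receptor, was higher in all 6 M-Z- embryos than in any M-Z+ embryo, with a log2 fold change of 0.33 (edgeR adjusted p = 0.536). It was the 1 of the 5 endothelial markers with separate groups, beside 0.574% of all tested genes. The summed endothelial markers ranged over 330 to 384 CPM for M-Z+ and over 365 to 423 CPM for M-Z- embryos, and the part of their cells in the level of *Peg10* was not tested.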

How the data were processed

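RNA-seq of 12 embryos, 6 M-Z+ and 6 M-Z-, was used. Whole-genome bisulfite sequencing libraries of the same series, 12 in all, were not analysed here. All tests were run on the raw counts that the authors deposited for each gene. The deposited FPKM served only for the gene length they imply, since 1 length per gene reproduced them in all libraries to within 0.0791%. The submitters' processing notes name HISAT2 2.0.4, Trim Galore 0.4.1, Bowtie2 2.2.9 and Bismark 0.15.0 with the build mm10, without saying which data each was used for. Which program made the counts, how it treated strand and which annotation it read is not given in the sources used here, and overlapping genes may share reads. No pair of libraries of the same genotype agreed within sampling noise, and pairs across genotypes were not compared in this way. Library totals were 12005145 to 19216288 counts.

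edgeR 4.0.16 (TMM, filterByExpr, glmQLFit and glmQLFTest) was fitted in R 4.3.3 over all genes without covariates. The limit of 0.5 on the log2 fold change follows the methods of the study. Exact permutation tests were run with SciPy 1.17.1 on log2(CPM + 0.5) for ratios and relations and on CPM for means, and relations over 12 embryos used 100000 resamples. Alternatives were DESeq2 1.42.0, RLE size factors, other filters on low counts, the replicate number as a block, the gene length slope or 2 surrogate variables (sva 3.50.0) as covariates, and each embryo left out. Leaving out the 3 libraries that stood apart and the use of GENCODE transcript lengths were chosen after seeing the data. The edgeR fit was tested on simulated data.

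The 7 genes, the gene lists and *Mest* and *Peg3* were chosen with earlier results of these data known. The text names the 7 genes, *Zfp57*, flanking genes by position, listed genes that were called or had separate groups, up to 4 genes of a list by TPM, and the 3 genes most like *Peg10* and the 3 most like *Sgce*. *Bet1*, *Dync1i1*, *Col1a2*, RP23-380L19.3 and *Gngt1* were singled out after their values were seen. *Calcr* was named because the study reports a change of it.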

Additional observations from a re-analysis of the deposited data

Results flagged for a closer look

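In 2 of the 30 sets of 6 values looked at (the 7 genes, *Mest*, *Peg3*, *Zfp57* and the 5 ratios in each genotype), 1 embryo was far from all others by Dixon's criterion at the 95% level. About 1 set in 20 is picked out by chance, which makes 1.5 of 30. The criterion was applied to CPM for both sets picked out, and its outcome on the log2 scale was not examined. *Peg10* had 366 CPM in M-Z+ replicate 5, below the 514 to 582 CPM of the other M-Z+ embryos. *Ppp1r9a* had 133 CPM in M-Z+ replicate 6, above the 11.2 to 40.8 CPM of the other M-Z+ embryos, and this library is among the 3 that stood apart on the first principal component. The labels give no condition that separates either embryo from its group, and no cause was tested.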

How the results depend on the processing

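None of the 7 genes and none of the flanking genes was called under any alternative, including leaving out the 3 libraries that stood apart, and the lowest adjusted p of a member was 0.191. Of 140 refitted member values, 3 changed sign: *Ppp1r9a* to −0.081 with the gene length slope and −0.059 with 2 surrogate variables, and *Asb4* to −0.0071 with the slope. With 2 surrogate variables the median of the members fell from 0.17 to 0.048, the values of *Casd1* and *Pon3* were 0.026 and 0.034, and *Peg10* had 0.13. When single embryos were removed the median ranged from 0.085 to 0.21, *Peg10* from 0.15 to 0.26, *Sgce* from 0.13 to 0.20, *Ppp1r9a* from 0.079 to 0.99, *Casd1* from 0.085 to 0.21, *Pon2* from 0.035 to 0.10, *Pon3* from 0.14 to 0.30 and *Asb4* from 0.0047 (without M-Z+ replicate 3) to 0.099. The lowest median and the lowest value of *Casd1*, both 0.085, were those without M-Z+ replicate 4. Over all genes, where edgeR called 13, DESeq2 called 37, the fit with the length slope 22, the fit with 2 surrogate variables 31 and the unadjusted p 247, and removal of single embryos gave 11 to 15. The causes were not tested.

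The ratio difference of *Peg10* to *Sgce* lay between −0.028 (without M-Z+ replicate 5) and 0.14 over the removals of single embryos. That of *Peg10* to *Mest* ranged from −0.50 to −0.34, *Sgce* to *Mest* from −0.54 to −0.47, *Peg10* to *Peg3* from −1.09 to −0.88 and *Sgce* to *Peg3* from −1.22 to −0.94. With a pseudocount of 1 and without the 3 libraries, *Peg10* to *Sgce* had 0.079 and 0.10 (adjusted permutation p = 0.626 and 0.619).

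Both genotypes carry the replicate numbers 1 to 6, which are not said to pair embryos. Across genes, the deviations of 2 embryos with the same number correlated with r above 0.1 in 5 of 6 pairs. The r was 0.30, 0.36 and 0.66 for numbers 3, 4 and 6 and −0.0034 for number 2. Of the 12 embryos, 5 were closest to the embryo of their own number among the 6 of the other genotype. Pairing was therefore not shown for all numbers, and it was not excluded. The main edgeR fit and the permutation tests did not use the numbers. With the replicate block 21 genes were called, none of them a member, and *Ppp1r9a* had 0.57 and *Peg10* 0.25.

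*Pon1* (5 to 31 counts) and *Pon3* (84 to 167 counts) had the lowest depth of the paraoxonase genes, and the coefficients of variation of *Pon3* were 22.2% and 13.9%. The 16 flanking rows with too few counts were not tested.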

Other observations

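*Gngt1*, a G protein gamma subunit gene of the flanking segment, had 0 counts in the libraries numbered 5 and 6 of both genotypes and 6 to 15 counts in the other 8 libraries. It is the 1 row of the table with 0 counts in these 4 libraries and at least 5 counts in all others.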
